A study of Caenorhabditis elegans with 16 samples.

Results

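The 10 genes described here make or load the small-molecule neurotransmitters of the nematode Caenorhabditis elegans: unc-17, cha-1 and cho-1 for acetylcholine, unc-25 and unc-47 for GABA, eat-4 for glutamate, and tph-1, cat-1, cat-2 and tdc-1 for the amines. They were matched by gene symbol to the 46911 genes of the deposited count files, all 10 were found, and all 10 were among the 14058 genes with enough reads to test. Whole first-stage (L1) larvae were starved from hatching and collected 12 h after hatch, 24 h after bleaching of well-fed adults, at 20 °C, with 10000 larvae per library. Polyadenylated RNA was sequenced from 16 libraries, 4 in each of 4 groups. The triple mutant carries daf-2(e1370), irld-39(duk1) and irld-52(duk17) and comes from independent lines, LRB457 (replicates 1 and 3) and LRB458 (replicates 1 and 4). The daf-2 mutant is strain CB1370, daf-2(e1370). The irld mutant is strain LRB444, which carries irld-52(duk17) together with irld-39(duk1). The wild type is N2. Every group was starved, so no fed larvae serve as a control, and since each group other than the triple mutant is a single strain, an effect of its alleles and any other difference of that strain cannot be told apart. daf-2 encodes the insulin and IGF receptor of the worm, and e1370 is a widely used reduction-of-function allele. irld-39 and irld-52 encode proteins with the ligand-binding type of domain found in insulin and EGF receptors. The design asks what each mutation does to starved larvae and whether the irld mutations alter the effect of the daf-2 mutation.

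A neuron's transmitter identity is set by a small battery of genes: an enzyme that makes the transmitter, a transporter that pumps it into synaptic vesicles, and often a plasma membrane transporter that brings in the transmitter or its precursor. In the worm each battery is switched on in its neuron class by a terminal selector, a transcription factor that acts directly on these genes throughout life. Acetylcholine is used by the largest share of worm neurons, followed by glutamate and GABA, while serotonin, dopamine, tyramine and octopamine are each made by very few cells. Because whole larvae were sequenced, fewer cells of a type and less RNA per cell cannot be told apart.

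Between 14033534 and 24903552 reads per library were assigned to genes. The first principal component of log2 CPM (42.4% of the variance) separated the 8 libraries with daf-2(e1370) from the 8 without it. Replicates 2 and 4 of the daf-2 mutant and LRB458 replicate 1 had scores of 6.90, 4.36 and 19.02, between the other 5 libraries with the allele (38.1 to 61.5) and the 8 libraries without it (-38.3 to -31.4), and each call on a member that changes without these 3 libraries is given both ways. Expression of daf-2 itself was 373 to 456 CPM in the triple mutant, 426 to 480 CPM in the daf-2 mutant, 383 to 569 CPM in the irld mutant and 242 to 558 CPM in wild type, which is no check of a point mutation. irld-39 had 1 to 12 reads and irld-52 had 1 to 10 reads per library, too few to test. The 13 general neuronal markers were all detected in every library, with a summed level of 2657 to 3115 CPM in the triple mutant, 2782 to 2990 CPM in the daf-2 mutant, 3417 to 3777 CPM in the irld mutant and 2714 to 4332 CPM in wild type.

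The order of the 10 genes by level per length, in CPM per kilobase of exon averaged over the 16 libraries, was unc-25, cha-1, unc-17, eat-4, cho-1, unc-47, tdc-1, cat-1, tph-1 and cat-2. unc-25 stood at 35.7 ± 4.10 CPM per kilobase (SD, n = 16 libraries) and above every other member in all 16 libraries. cha-1 (18.3 ± 2.33 CPM per kilobase) and unc-17 (16.7 ± 3.03 CPM per kilobase) followed, with cha-1 the higher of the pair in 13 of 16 libraries. Next came eat-4 at 10.2 ± 1.21, cho-1 at 7.31 ± 1.32, unc-47 at 6.06 ± 1.03, tdc-1 at 3.83 ± 0.848 and cat-1 at 2.78 ± 0.752 CPM per kilobase. tph-1 (0.912 ± 0.405 CPM per kilobase) and cat-2 (0.865 ± 0.357 CPM per kilobase) were lowest and did not differ beyond their spread, tph-1 being the higher in 9 of 16 libraries. The median gene tested had a level of 8.495 CPM per kilobase, so 4 of the members lay above it and 6 below, from the 83.2 percentile for unc-25 to the 5.87 percentile for cat-2. The order was the same in all 4 groups, except that cat-2 stood above tph-1 in the triple and daf-2 mutants and tph-1 above cat-2 in the irld mutant and wild type.

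**Figure D1:**
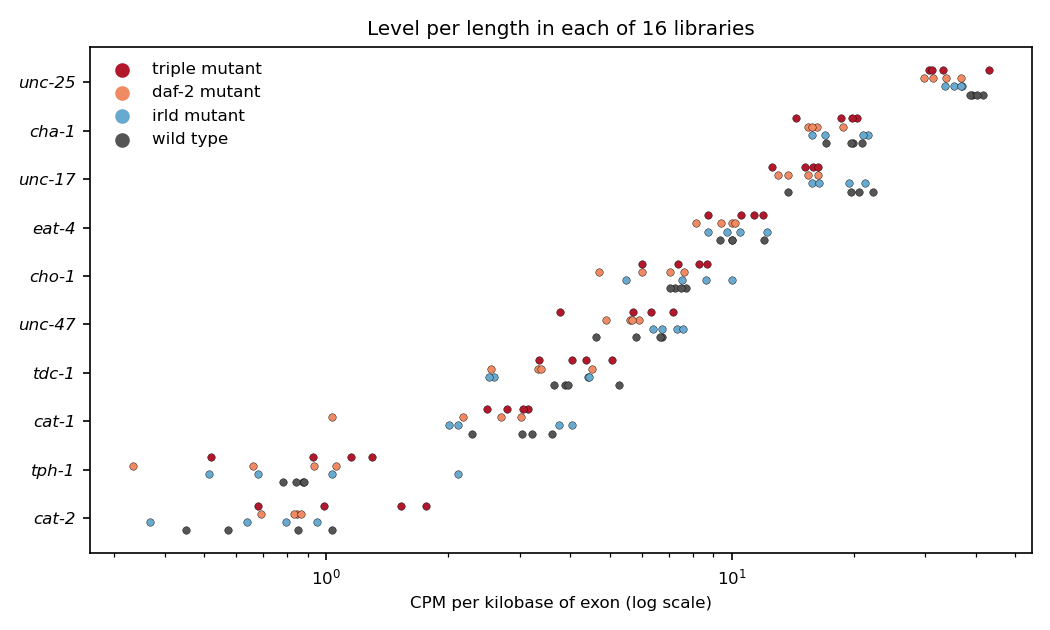
Level of each member in CPM per kilobase of exon (log scale) in each of the 16 libraries, with 1 row of points per group within each gene. unc-25 lies highest, from 29.7 to 43.1 CPM per kilobase, and tph-1 and cat-2 lie lowest with overlapping points.

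unc-17 is the only member for which a difference passed the test. It encodes the transporter that loads acetylcholine into synaptic vesicles, and it lies on chromosome IV (WBGene00006756, 3618259 to 3624699, minus strand, WBcel235 annotation). It had 29.1 and 30.4 CPM in LRB457 and 24.2 and 31.4 CPM in LRB458 of the triple mutant, 26.4, 29.6, 25.04 and 31.4 CPM in the daf-2 mutant, 30.3, 31.5, 37.3 and 40.9 CPM in the irld mutant, and 39.5, 42.9, 26.4 and 37.8 CPM in wild type. The 8 libraries with daf-2(e1370) reached at most 31.4 CPM, and of the 8 without it only wild type replicate 3 and irld mutant replicate 1 were below that. With these 8 libraries set against the other 8 in the model of all 4 groups, unc-17 fell by 0.33 on the log2 scale (95% interval -0.55 to -0.12; edgeR quasi-likelihood test, Benjamini-Hochberg adjusted p = 0.0199). unc-17 was 1 of 10 members called in that comparison, in which 31.2% of all genes tested were called, and the unadjusted p was under 0.05 for 2 members and for 41.15% of all genes. The call held in 24 of the 26 alternative settings, without the 3 libraries with intermediate component scores among them (log2 fold change -0.36, adjusted p = 0.0365). It was lost without line LRB458 (-0.31, adjusted p = 0.0688) and with libraries scaled to all their reads (-0.27, adjusted p = 0.0591).

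Between single groups the difference in unc-17 missed the threshold. The log2 fold change was -0.35 ± 0.14 (SE) in the triple mutant against wild type (adjusted p = 0.0984), -0.38 ± 0.14 in the daf-2 mutant against wild type (adjusted p = 0.0845), and -0.28 ± 0.14 in the triple against the irld mutant (adjusted p = 0.193). Wild type replicate 3, at 26.4 CPM, decides the pair of comparisons with wild type: without it unc-17 was called in the triple mutant (-0.46, adjusted p = 0.0162) and in the daf-2 mutant (-0.52, adjusted p = 0.00980). That library was the lowest wild type library for 6 of the 10 members and the highest for 2. Its median deviation from the wild type mean, in log2 CPM, was -0.70 for body wall muscle markers and -0.51 for pharynx markers. It was -0.37 for the release machinery, -0.29 for vesicle loading partners, and -0.21 each for the general neuronal and intestine markers. Excretory cell markers had -0.16, reuptake and breakdown genes -0.08, and receptors for GABA, glutamate and amines -0.03. Other synthesis enzymes had -0.001, acetylcholine receptors 0.01, epidermis markers 0.02, terminal selectors 0.06 and germ line markers 0.16. The part of these genes in the result was not tested. Most general neuronal markers had the same sign as unc-17. In the daf-2 and triple mutants against the other groups, 12 of the 13 markers had a negative log2 fold change. Of all genes tested 49.35% had a positive one. The test called 3 of the 13 markers, all lower (unc-64, egl-21 and egl-3), beside 31.2% of all genes called and 15.0% called lower. egl-3 lost its call in 19 of the 26 alternative settings. The median of the 13 markers was -0.12, against -0.01 for all genes tested, and their part in the result was not tested.

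cha-1, the choline acetyltransferase that makes acetylcholine, shares its locus with unc-17. It spans 3613931 to 3624697 on the minus strand of chromosome IV (WBGene00000481), and unc-17 lies within a cha-1 intron apart from a common first exon, of which 66 exon bases belong to both annotated genes. Reads on those bases cannot be assigned to either gene alone. cha-1 had 38.6 and 42.2 CPM in LRB457 and 29.9 and 41.1 CPM in LRB458 of the triple mutant, 31.9, 33.6, 32.7 and 38.97 CPM in the daf-2 mutant, 32.7, 35.2, 45.0 and 43.7 CPM in the irld mutant, and 43.4, 35.3, 41.2 and 40.8 CPM in wild type. All 4 groups overlapped. The log2 fold change was -0.08 (95% interval -0.35 to 0.19) in the triple mutant against wild type and -0.23 (-0.50 to 0.04) in the daf-2 mutant against wild type, and over the 8 against 8 libraries it was -0.14 (-0.33 to 0.05, edgeR adjusted p = 0.274).

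The ratio of cha-1 to unc-17 reads, on the log2 scale, averaged 0.39 ± 0.07 in the triple mutant, 0.29 ± 0.08 in the daf-2 mutant, 0.16 ± 0.08 in the irld mutant and 0.15 ± 0.38 in wild type (SD, n = 4 each). All 4 triple mutant libraries were above all 4 irld mutant libraries, a difference of 0.24 with an exact two-sided permutation p of 0.0286, the smallest that 4 against 4 libraries can give, and 0.143 after adjustment over the 5 pairs compared. The other 4 pairs had adjusted p from 0.214 to 0.886 in the same exact permutation test. The wild type spread came from libraries on opposite sides. Reads of cha-1 made up 45.1% of the pair's reads in wild type replicate 2 (95% exact binomial interval 42.2% to 48.1%) and 61.0% in replicate 3 (57.9% to 63.98%), while replicates 1 and 4 had 52.3% and 51.9%. These intervals cover counting error only, and the first pair does not overlap, so those libraries differ in the ratio by more than counting error.

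cho-1 encodes the high-affinity transporter that brings choline back into cholinergic terminals (WBGene00000501, chromosome IV, 13209730 to 13214566, minus strand). It had 14.5 and 17.1 CPM in LRB457 and 11.8 and 16.3 CPM in LRB458 of the triple mutant, 11.8, 13.8, 9.25 and 15.0 CPM in the daf-2 mutant, 10.8, 14.8, 19.7 and 16.97 CPM in the irld mutant, and 15.2, 14.3, 13.8 and 14.8 CPM in wild type. Wild type was the tightest group, with an SD of 0.06 in log2 CPM against 0.30 for the median gene tested, and each mutant group had at least 1 library below the lowest wild type library. Against wild type, cho-1 had a log2 fold change of 0.04 (95% interval -0.33 to 0.41) in the triple mutant, -0.21 (-0.59 to 0.16) in the daf-2 mutant and 0.10 (-0.27 to 0.48) in the irld mutant.

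**Figure D2:**
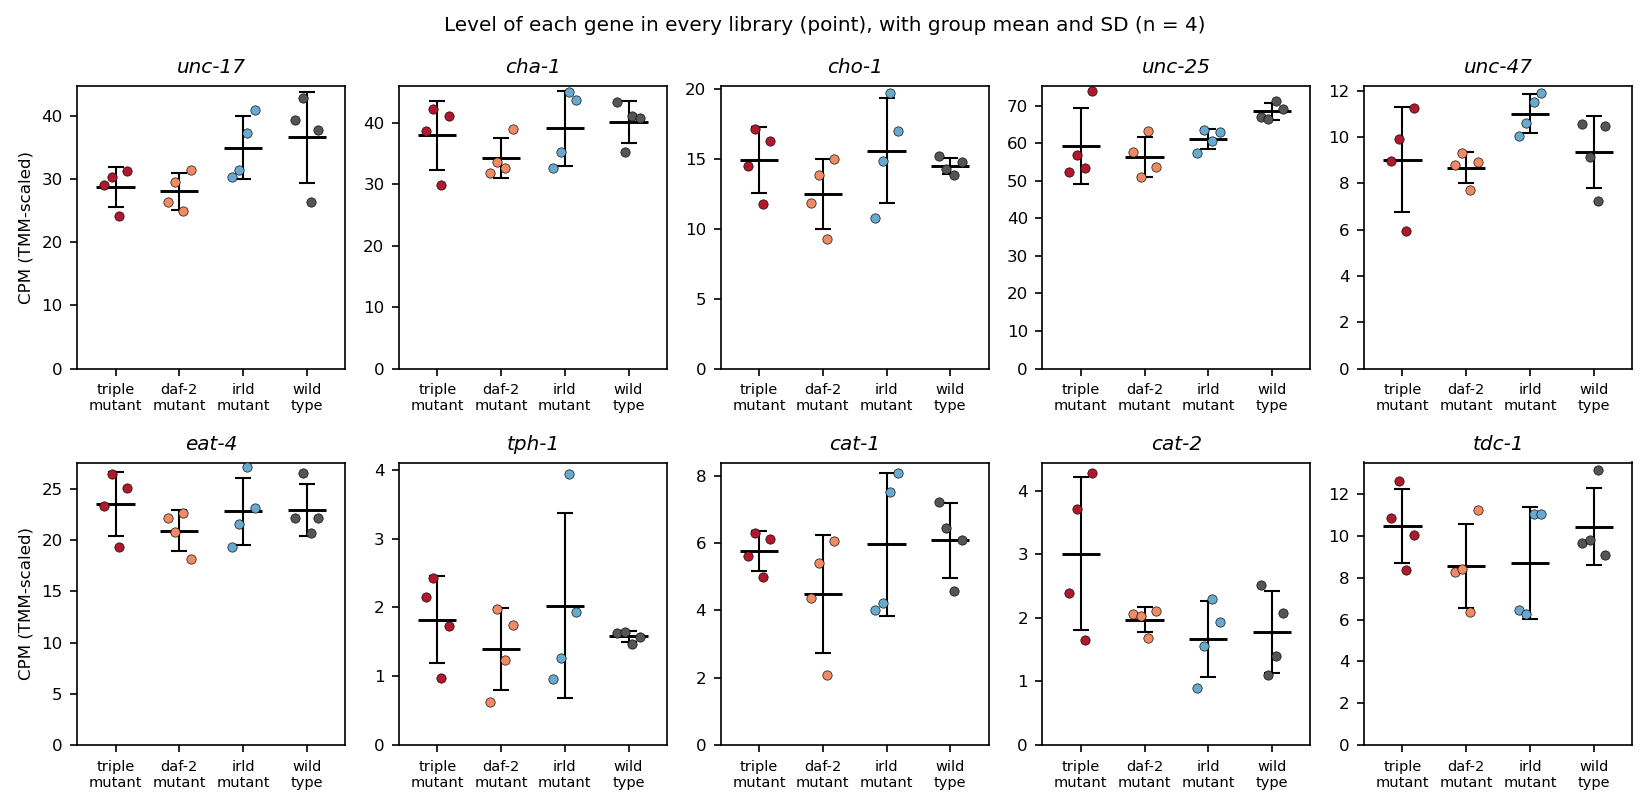
Level of each of the 10 members in CPM, with 1 point per library, the group mean as a horizontal line and the SD as a bar (n = 4 libraries per group); each panel has its own axis from 0. unc-17 reaches at most 31.4 CPM in the 8 libraries of the triple and daf-2 mutants, and the wild type points of unc-25 lie above all points of the daf-2 and irld mutants.

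unc-25 encodes glutamate decarboxylase, which makes GABA (WBGene00006762, chromosome III, 12942651 to 12949883, plus strand). It had 52.5 and 56.9 CPM in LRB457 and 53.5 and 73.98 CPM in LRB458 of the triple mutant, 57.8, 51.0, 63.2 and 53.7 CPM in the daf-2 mutant, 57.4, 63.5, 60.7 and 62.9 CPM in the irld mutant, and 66.97, 66.4, 71.3 and 69.1 CPM in wild type. All 4 daf-2 mutant libraries and all 4 irld mutant libraries lay below all 4 wild type libraries. In the triple mutant 3 libraries lay below wild type and LRB458 replicate 4 above it. Groups this far apart occurred for 18.3% of all genes tested in the daf-2 mutant against wild type and for 2.23% in the irld mutant against wild type, and unc-25 was the 1 member of 10 in each. Fold changes on the log2 scale were -0.21 ± 0.11 (SE) in the triple mutant (edgeR adjusted p = 0.185), -0.28 ± 0.11 in the daf-2 mutant (adjusted p = 0.0860) and -0.16 ± 0.11 in the irld mutant (adjusted p = 0.698), none past the threshold.

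The result for unc-25 rests on LRB458 replicate 4. Without that library the log2 fold change was -0.33 in the triple mutant against wild type (edgeR adjusted p = 0.0233) and -0.22 for the libraries with daf-2(e1370) against those without it (adjusted p = 0.0135), against -0.16 with all libraries (adjusted p = 0.114). Without the 3 libraries with intermediate component scores it was -0.09 (adjusted p = 0.512). Wild type replicates agreed closely for unc-25, with an SD of 0.05 in log2 CPM, smaller than that of all but 0.697% of the genes tested.

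unc-47 encodes the vesicular GABA transporter (WBGene00006783, chromosome III, 10183762 to 10186260, minus strand). It had 8.96 and 9.92 CPM in LRB457 and 5.92 and 11.2 CPM in LRB458 of the triple mutant, 8.79, 9.29, 7.70 and 8.91 CPM in the daf-2 mutant, 10.0, 10.6, 11.52 and 11.9 CPM in the irld mutant, and 10.6, 9.12, 7.24 and 10.5 CPM in wild type. The irld mutant was on average the highest group, and 3 of its libraries exceeded every wild type library. Its log2 fold change against wild type was 0.24 (95% interval -0.12 to 0.60, edgeR adjusted p = 0.717), and that of the triple against the irld mutant was -0.29 (-0.64 to 0.07, adjusted p = 0.269). Enzyme and transporter thus had opposite signs in the irld mutant, with neither past the threshold. Of the other genes that load vesicles, unc-46, which sorts UNC-47 to synaptic vesicles, averaged 3.72 ± 0.525 CPM in the triple mutant, 2.29 ± 0.885 CPM in the daf-2 mutant, 3.29 ± 0.455 CPM in the irld mutant and 3.71 ± 0.763 CPM in wild type (SD, n = 4 each). The daf-2 mutant was the low group: its log2 fold change against wild type was -0.69 ± 0.26 (SE, adjusted p = 0.0812), that of the triple mutant against wild type was 0.00 ± 0.25 (adjusted p = 0.993), and neither passed the test.

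eat-4 encodes the vesicular glutamate transporter of glutamatergic neurons (WBGene00001135, chromosome III, 9136887 to 9141827, plus strand). Of its exon bases 5.37% are overlapped by exons of ZK512.2 and ZK512.7 on the opposite strand, and reads there cannot be told apart if strand was not used in counting. It had 23.4 and 26.5 CPM in LRB457 and 19.3 and 25.1 CPM in LRB458 of the triple mutant, 22.2, 20.8, 22.6 and 18.1 CPM in the daf-2 mutant, 19.4, 21.6, 27.1 and 23.2 CPM in the irld mutant, and 22.2, 26.6, 20.7 and 22.2 CPM in wild type. All groups overlapped, and its intervals were among the narrowest of the members. Against wild type, eat-4 had a log2 fold change of 0.04 (95% interval -0.23 to 0.30) in the triple mutant, -0.13 (-0.40 to 0.13) in the daf-2 mutant and -0.01 (-0.27 to 0.26) in the irld mutant.

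Of the amine genes, cat-2 had the largest log2 fold changes of any member in the comparisons of the triple mutant with the other groups. It encodes tyrosine hydroxylase, which makes the precursor of dopamine (WBGene00000296, chromosome II, 257819 to 261074, plus strand), and it lies inside the span of scc-2 on the opposite strand with no exon bases in common. It had 2.40 and 3.72 CPM in LRB457 and 1.65 and 4.28 CPM in LRB458 of the triple mutant, 2.06, 2.03, 1.68 and 2.11 CPM in the daf-2 mutant, 0.895, 1.55, 2.30 and 1.94 CPM in the irld mutant, and 2.52, 1.10, 1.395 and 2.08 CPM in wild type. These levels rest on 14 to 111 reads per library. LRB457 replicate 3 and LRB458 replicate 4 were above all 12 libraries of the other groups. LRB457 replicate 1 was below wild type replicate 1, and LRB458 replicate 1 also lay among the libraries of the other groups. The log2 fold change was 0.77 ± 0.33 (SE) in the triple mutant against wild type (95% interval 0.06 to 1.48, edgeR adjusted p = 0.119) and 0.85 ± 0.33 against the irld mutant (0.14 to 1.55, adjusted p = 0.0921). Against the daf-2 mutant it was 0.61 ± 0.33 (-0.08 to 1.31, adjusted p = 0.780). In the daf-2 mutant against wild type it was 0.15 ± 0.34 (-0.57 to 0.88, adjusted p = 0.790).

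LRB458 replicate 1 decides these calls for cat-2. Without it the log2 fold change was 0.97 in the triple mutant against wild type (edgeR adjusted p = 0.0464) and 1.05 against the irld mutant (adjusted p = 0.0341), and without all 3 libraries with intermediate component scores it was 1.06 against the irld mutant (adjusted p = 0.047). Each line alone gave a positive value against wild type, 0.79 from LRB457 (adjusted p = 0.193) and 0.75 from LRB458 (adjusted p = 0.289). dat-1, the dopamine reuptake transporter made by the same neurons, averaged 8.545 ± 3.01 CPM in the triple mutant, 5.495 ± 2.08 CPM in the daf-2 mutant, 5.88 ± 2.99 CPM in the irld mutant and 6.53 ± 1.42 CPM in wild type (SD, n = 4 each). Like that of cat-2, its mean was highest in the triple mutant, with log2 fold changes of 0.39 ± 0.37 (SE) against wild type (adjusted p = 0.502), 0.63 ± 0.37 against the daf-2 mutant (adjusted p = 0.796) and 0.53 ± 0.37 against the irld mutant (adjusted p = 0.360), none past the threshold. For the libraries with daf-2(e1370) against those without it, cat-2 had 0.50 ± 0.24 (adjusted p = 0.125) and dat-1 had 0.14 ± 0.26 (adjusted p = 0.724).

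tph-1 encodes tryptophan hydroxylase, the first enzyme of serotonin synthesis (WBGene00006600, chromosome II, 7549335 to 7551983, plus strand), and 9.31% of its exon bases are shared with other annotated genes, mostly on the opposite strand. It had 2.15 and 2.42 CPM in LRB457 and 0.971 and 1.73 CPM in LRB458 of the triple mutant, 0.623, 1.97, 1.23 and 1.74 CPM in the daf-2 mutant, 0.959, 1.27, 3.94 and 1.94 CPM in the irld mutant, and 1.63, 1.65, 1.46 and 1.58 CPM in wild type. With 10 to 65 reads per library it had wide intervals, and irld mutant replicate 3 alone set its highest value. The log2 fold change against wild type was 0.19 (95% interval -0.69 to 1.08) in the triple mutant, -0.18 (-1.08 to 0.73) in the daf-2 mutant and 0.36 (-0.52 to 1.25) in the irld mutant, so a 2-fold difference lay within each interval on at least 1 side. Without irld mutant replicate 3 the last value was -0.18.

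cat-1 encodes the vesicular monoamine transporter, used by serotonin, dopamine, tyramine and octopamine neurons alike (WBGene00000295, chromosome X, 5705690 to 5710737, minus strand). It had 5.62 and 6.32 CPM in LRB457 and 5.00 and 6.13 CPM in LRB458 of the triple mutant, 4.36, 5.42, 2.07 and 6.06 CPM in the daf-2 mutant, 4.03, 4.23, 7.52 and 8.09 CPM in the irld mutant, and 7.21, 6.45, 4.58 and 6.09 CPM in wild type. The irld mutant libraries fell into a low pair and a high pair, on either side of all 4 wild type libraries. For cat-1 the log2 fold change was -0.08 (95% interval -0.68 to 0.53) in the triple mutant and -0.44 (-1.05 to 0.17) in the daf-2 mutant against wild type. Without the 3 libraries with intermediate component scores, the daf-2 mutant value was -0.91 and missed the threshold (edgeR adjusted p = 0.0947).

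tdc-1 encodes tyrosine decarboxylase, which makes tyramine, the precursor of octopamine (WBGene00006562, chromosome II, 8270597 to 8273615, plus strand). It had 10.9 and 12.6 CPM in LRB457 and 8.35 and 10.1 CPM in LRB458 of the triple mutant, 8.29, 8.43, 6.34 and 11.2 CPM in the daf-2 mutant, 6.46, 6.28, 11.03 and 11.05 CPM in the irld mutant, and 9.66, 9.81, 13.2 and 9.10 CPM in wild type. The groups overlapped, and as with cat-1 irld mutant replicates 1 and 2 were low and replicates 3 and 4 high. The log2 fold change against wild type was 0.00 (95% interval -0.45 to 0.46) in the triple mutant, -0.28 (-0.74 to 0.18) in the daf-2 mutant and -0.26 (-0.72 to 0.20) in the irld mutant. tbh-1, which turns tyramine into octopamine, averaged 2.25 ± 0.541 CPM in the triple mutant, 1.43 ± 0.365 CPM in the daf-2 mutant, 2.04 ± 0.550 CPM in the irld mutant and 2.37 ± 0.265 CPM in wild type (SD, n = 4 each). The log2 fold change of tbh-1 was -0.08 ± 0.25 (SE) in the triple mutant against wild type (edgeR adjusted p = 0.858) and -0.72 ± 0.25 in the daf-2 mutant against wild type (adjusted p = 0.0645), and neither passed the test.

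Across the set, the triple mutant against wild type gave 0 calls among the 10 members by edgeR and 0 by DESeq2, with an unadjusted edgeR p under 0.05 for 2 members (unc-17 and cat-2). Of all genes tested 20.4% were called and 32.96% had an unadjusted p under 0.05. The daf-2 mutant against wild type likewise gave 0 calls by each tool and 2 members with an unadjusted p under 0.05 (unc-17 and unc-25), where 15.7% of all genes were called and 30.13% had an unadjusted p under 0.05. There 9 of 10 members had a negative log2 fold change, under every scaling tried, with a median of -0.22 against -0.00 for all genes. The sign of tph-1 and that of cat-2 each changed in 1 of 17 alternative settings. Without the 3 libraries with intermediate component scores, values for cho-1 (-0.46, adjusted p = 0.141), tph-1 (-0.77, adjusted p = 0.346) and tdc-1 (-0.51, adjusted p = 0.210) were farther from 0 and still missed the threshold. The irld mutant against wild type gave 0 calls by each tool and 0 members with an unadjusted p under 0.05, where 0.00711% of all genes, that is 1 gene, was called and 6.49% had an unadjusted p under 0.05. The members' log2 fold changes in that comparison ran from -0.26 to 0.36, and their 95% intervals from -0.81 to 1.25.

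The triple mutant against the irld mutant, which differ by daf-2(e1370), gave 0 calls by each tool and 1 member with an unadjusted p under 0.05 (cat-2), where 18.4% of all genes were called and 30.94% had an unadjusted p under 0.05. Of the members 7 had negative and 3 had positive log2 fold changes, a split that turned to 3 negative and 7 positive with libraries scaled to all their reads. This comparison shares no library with that of the daf-2 mutant against wild type. In 8 of 10 members (80%) the sign was the same in each, 7 lower and cat-2 higher, beside 71.2% of all genes tested, and the exceptions were eat-4 and tdc-1. With libraries scaled to all their reads it was the same in 4 of 10 members (40%), beside 71.8% of all genes, so the members' agreement depends on the scaling.

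Set against the daf-2 mutant, from which it differs by the irld mutations, the triple mutant gave 0 calls by each tool and 0 members with an unadjusted p under 0.05, where 0.0925% of all genes were called and 6.51% had an unadjusted p under 0.05. All 10 members had a positive log2 fold change, from 0.03 for unc-17 to 0.61 for cat-2, under each scaling tried, while 46.5% of all genes had a positive one. In other alternatives the sign changed for unc-17 in 3 of 19 settings, for unc-25 and unc-47 in 2 each and for tph-1 in 1. The 10 signs are not independent, since members tended to be high or low together in particular libraries. The median of the members was 0.21, against -0.02 for all genes. Of these 10 values none passed the test, and the 95% intervals ran from -0.51 to 1.31.

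The interaction compares the difference between triple and daf-2 mutant with the difference between irld mutant and wild type. It gave 0 calls among the members by edgeR and 0 by DESeq2, with 0 members at an unadjusted p under 0.05, where 0.0640% of all genes were called and 6.004% had an unadjusted p under 0.05. It was positive for 9 of 10 members, all but unc-47, and was largest for cat-2 (0.69 ± 0.48 SE, adjusted p = 0.768) and tdc-1 (0.54 ± 0.31, adjusted p = 0.763). The sign changed for tph-1 in 11 of 26 alternative settings and for unc-47 in 1. The authors' deposited table, in which the interaction runs in the opposite direction, gives adjusted p-values of 0.767 to 0.989 for the 10 members and holds 9 genes under 0.05 among 12690.

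**Figure D3:**
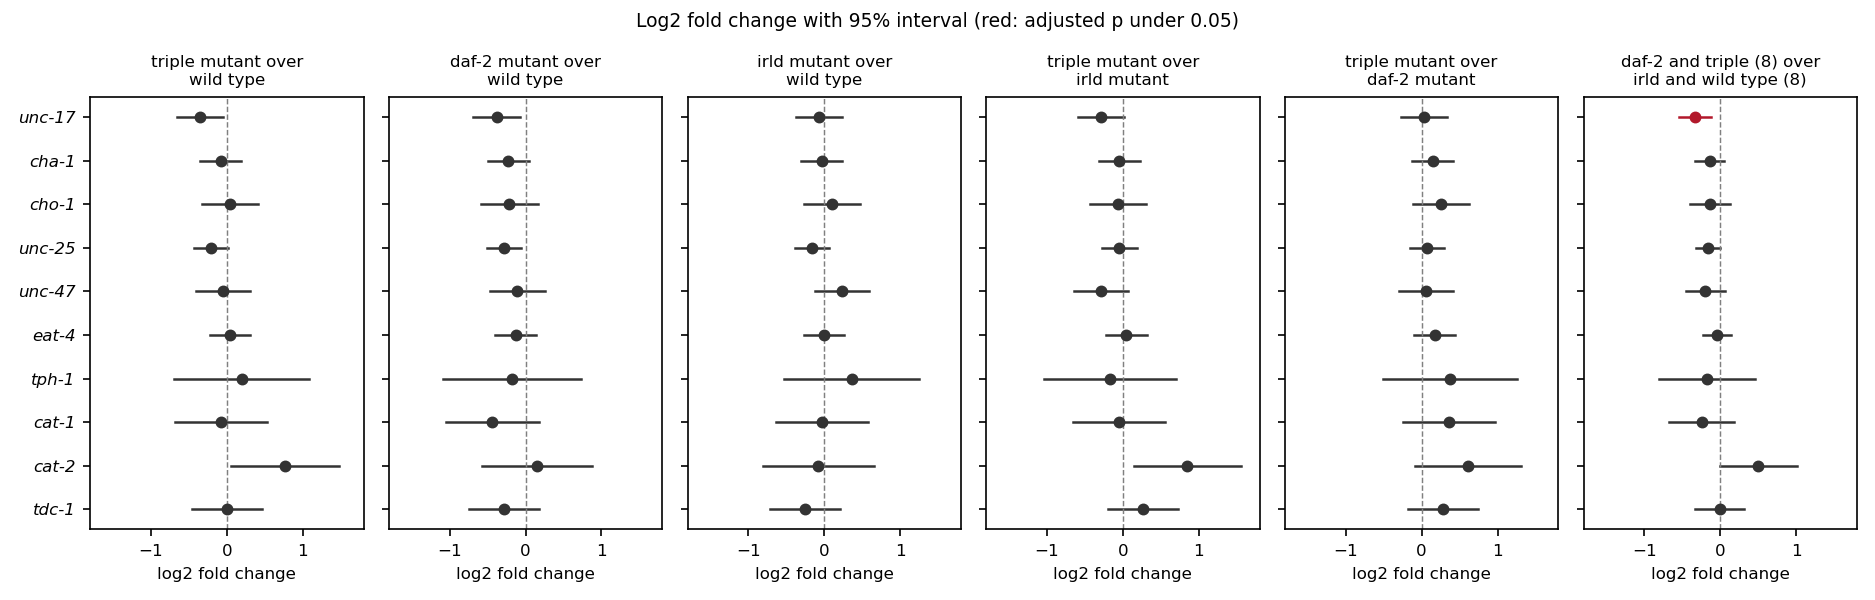
Log2 fold change of each member with its 95% interval in 6 comparisons, 1 panel each, from the model of all 4 groups; the dashed line marks 0. The interval of unc-17 in the last panel, -0.55 to -0.12, is the single one of these 60 drawn in red for an adjusted p under 0.05, and cat-2 has the largest value in the panel of the triple against the irld mutant (0.85).

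Within groups, the members tended to be high or low together in particular libraries. LRB458 replicate 1 was the lowest triple mutant library for 9 of the 10 members, with a median deviation of -0.32 in log2 CPM from the mean of its group, and irld mutant replicate 1 was the lowest of its group for 9 of 10, with a median deviation of -0.31. At the other end irld mutant replicate 3 was above the mean of its group for 9 members (median deviation 0.32) and irld mutant replicate 4 for all 10 (0.16), as were LRB457 replicate 3 (0.18) and LRB458 replicate 4 (0.13) of the triple mutant for 9 members each. The median over all genes tested was within 0.03 of 0 in each library. In the daf-2 mutant, replicate 3 was the lowest library for 6 members (-0.16) and replicate 4 the highest for 6 (0.18). Each list of related genes or markers was compared in sign of median deviation with the members over the 16 libraries. Signs were the same in 15 for the release machinery and the GABA, glutamate and amine receptors, and in 14 for reuptake and breakdown. The count was 13 for acetylcholine receptors and the 4 pharynx markers. It was 12 for the 13 general neuronal markers, terminal selectors and body wall muscle, and 11 for germ line. The excretory cell had 7, intestine 5, vesicle loading partners 4, other synthesis enzymes 3 and the 4 epidermis markers 2. The pharynx median was -0.47 in LRB458 replicate 1, -0.71, 0.81 and 0.49 in irld mutant replicates 1, 3 and 4, and -1.06 and 0.87 in daf-2 mutant replicates 3 and 4. It was 0.36 in LRB457 replicate 3 and, opposite to the members, -0.22 in LRB458 replicate 4. The part of these genes and tissues in the members' deviations was not tested.

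**Figure D4:**
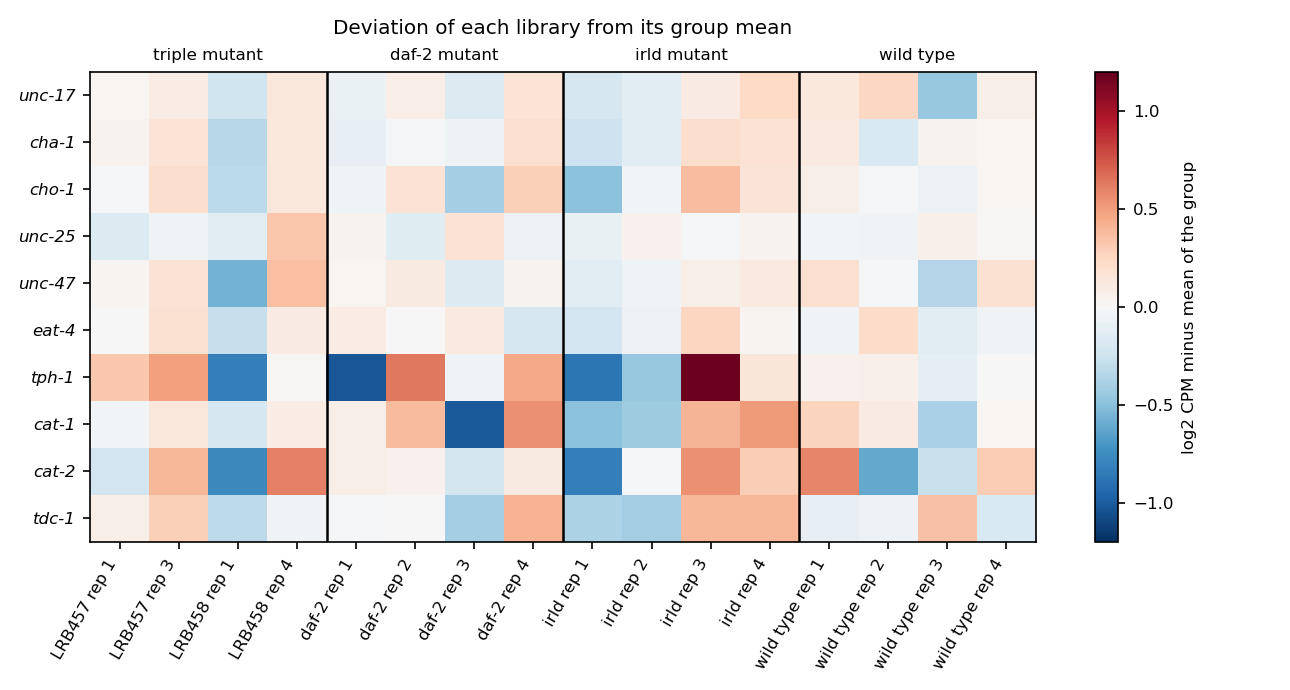
Log2 CPM of each member (rows) in each library (columns) minus the mean of the library's group, red for higher and blue for lower. Vertical lines separate the groups. Here log2 CPM has no prior count, unlike the deviations given in the text, which widens the values of genes with few reads. LRB458 replicate 1 and irld mutant replicate 1 are lowest in their groups for 9 of 10 members, and tph-1, cat-1 and cat-2 show the strongest colours.

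The spread between replicates differed by gene and by group. Among the largest SDs in log2 CPM were those of tph-1 in the irld mutant (0.83, against 0.20 for the median gene tested), of cat-1 and tph-1 in the daf-2 mutant (0.67 each, against 0.20), and of cat-2 (0.60) and tph-1 (0.54) in the triple mutant (against 0.18). The same genes were tight elsewhere: cat-1 had the smallest SD of the 10 members in the triple mutant (0.15), and cat-2 had 0.14 in the daf-2 mutant, below cho-1 (0.30). tph-1, cat-2 and cat-1 had the fewest reads of the members, and genes with few reads have a larger counting error. The part of counting error in these large SDs was not tested. unc-25, cho-1 and tph-1 were among the tightest genes in wild type, with SDs of 0.05, 0.06 and 0.07, against 0.30. There tph-1 had 22 to 24 reads per library and cho-1 had 206 to 223. Whether SDs this small over 4 libraries differ from counting error was not tested.

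Over all 16 libraries the members whose centred log2 profiles were nearest to each other were cha-1 and cho-1, with a root mean square difference of 0.15. Among all other genes tested, the nearest to unc-17 was Y9C12A.1 (0.11), followed by glt-4 (0.12), a glutamate transporter. The nearest to cha-1 were pde-1, a phosphodiesterase (0.09), and C05G5.1 (0.10). The nearest to unc-25 were snt-3, a synaptotagmin (0.10), and gpa-3, a G protein alpha subunit (0.11). The nearest to tph-1 was ser-7, a serotonin receptor (0.25), to cat-1 npr-18, a neuropeptide receptor family member (0.20), to tdc-1 cex-2 (0.15), to cho-1 qui-1 (0.10), to unc-47 sulp-7 (0.14), to eat-4 pxl-1 (0.12) and to cat-2 the gene F01G4.4 (0.29), after 1 gene with no symbol in the annotation (0.28). The median gene differed by 0.34 to 0.63 from these members. These are descriptions over libraries that share groups and depth.

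Genes that work beside the members were taken from lists of related genes and compared for the 8 libraries with daf-2(e1370) against the 8 without it, where 16.1% of all genes were called higher and 15.0% lower, and for 8.32% the groups did not overlap. Over all the lists, markers included, 45 of 229 distinct genes were called by edgeR and 47 by DESeq2. Of 11 other synthesis and cofactor enzymes tested, 3 were called higher and 3 lower, with a median log2 fold change of -0.16 against -0.01 for all genes. cat-4, the GTP cyclohydrolase that makes the tetrahydrobiopterin cofactor needed by the enzymes TPH-1 and CAT-2, averaged 20.4 ± 2.29 CPM in the triple mutant, 22.5 ± 6.47 CPM in the daf-2 mutant, 30.8 ± 3.68 CPM in the irld mutant and 34.4 ± 7.44 CPM in wild type (SD, n = 4 each). It fell by 0.60 on the log2 scale (edgeR adjusted p = 0.00209). ptps-1, which acts in the next step of the same cofactor pathway, rose by 1.93 (adjusted p = 0.00172), and agmo-1, an enzyme that uses the cofactor, rose by 1.53 (adjusted p = 0.000535). ptps-1 had 5.997 and 8.15 CPM in LRB457 and 2.62 and 15.9 CPM in LRB458 of the triple mutant, 4.30, 1.66, 10.7 and 2.69 CPM in the daf-2 mutant, 1.09, 1.199, 2.06 and 1.59 CPM in the irld mutant, and 1.70, 1.71, 2.06 and 1.72 CPM in wild type. Its lowest values among libraries with the allele were in daf-2 mutant replicates 2 and 4 and LRB458 replicate 1, the 3 libraries with intermediate component scores. bas-1, the decarboxylase that completes serotonin and dopamine synthesis, had -0.16 ± 0.07 (SE, adjusted p = 0.103).

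Of 18 reuptake and breakdown genes, 0 were called higher and 4 lower, with a median of -0.12, beside 16.1% and 15.0% of all genes. mod-5, the serotonin reuptake transporter, had 3.598 and 5.96 CPM in LRB457 and 4.86 and 5.20 CPM in LRB458 of the triple mutant, 4.43, 5.60, 3.62 and 5.38 CPM in the daf-2 mutant, 6.65, 6.63, 8.79 and 8.26 CPM in the irld mutant, and 5.92, 8.09, 8.17 and 7.45 CPM in wild type. Only LRB457 replicate 3 and wild type replicate 1 overlapped, and mod-5 fell by 0.63 (edgeR adjusted p = 0.00149). glt-1, a glutamate transporter, fell by 0.33 (adjusted p = 0.00191) and ace-2, an acetylcholinesterase, by 0.29 (adjusted p = 0.00691). Of 14 vesicle loading partners, 1 was called in each direction, and DESeq2 called 4 in all. vglu-2, a relative of eat-4 in the vesicular glutamate transporter family, had 14.1 to 25.6 CPM in the triple mutant, 9.86 to 18.4 CPM in the daf-2 mutant, 27.8 to 42.8 CPM in the irld mutant and 29.2 to 33.3 CPM in wild type, with no overlap between libraries with and without the allele, and fell by 0.99 (adjusted p = 0.000114).

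Of 37 genes of the synaptic vesicle release machinery, 0 were called higher and 4 lower, with a median of -0.06. In that comparison 16.1% of all genes tested were called higher and 15.0% lower. unc-64, the worm syntaxin, had 89.7 to 104.4 CPM in the triple mutant, 85.8 to 104.2 CPM in the daf-2 mutant, 115.1 to 126 CPM in the irld mutant and 110 to 117 CPM in wild type, and fell by 0.27 (edgeR adjusted p = 0.00234). nsf-1, the ATPase that recycles SNARE proteins, fell by 0.31 (adjusted p = 0.00421). Of 13 general neuronal markers, a list that also holds unc-64, 0 were called higher and 3 lower. The release machinery as a list was not lower in each comparison of single groups. Its median was 0.02 in the daf-2 mutant against wild type, with 21 genes positive and 16 negative. In the triple against the irld mutant it was -0.14, with 4 positive and 33 negative. In the irld mutant against wild type it was 0.23, with 30 positive and 7 negative.

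On the receptor side, 2 of 34 acetylcholine receptor genes were called higher and 3 lower, with a median of -0.01. For GABA, glutamate and amines, 1 of 50 receptors was called higher and 6 lower, with a median of -0.07. Of all genes tested 16.1% were called higher and 15.0% lower, 31.2% in all. The receptors named here are among the called ones. The glutamate-gated chloride channel subunits glc-1 and glc-2 fell by 0.79 (edgeR adjusted p = 2.90e-05) and by 0.88 (adjusted p = 0.000384). ser-4, a serotonin receptor, had 9.69 to 10.9 CPM in the triple mutant, 8.86 to 11.4 CPM in the daf-2 mutant, 14.8 to 16.7 CPM in the irld mutant and 13.3 to 16.2 CPM in wild type. The libraries with the allele all lay below those without it, and ser-4 fell by 0.55 (adjusted p = 3.37e-05). Of the acetylcholine receptor subunits, acr-19 fell by 0.53 (adjusted p = 0.000110), while acr-8 rose by 0.59 (adjusted p = 0.00610) and unc-38, part of the levamisole receptor of muscle, rose by 0.34 (adjusted p = 0.0133).

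Among 30 terminal selector and related neuronal transcription factors, 1 was called higher and 4 lower, with a median of -0.11. The shares of all genes tested were 16.1% higher and 15.0% lower. unc-3, the selector of cholinergic motor neurons that acts on unc-17, cha-1 and cho-1, had 10.2 to 11.6 CPM in the triple mutant, 10.4 to 12.3 CPM in the daf-2 mutant, 13.8 to 16.1 CPM in the irld mutant and 10.6 to 16.2 CPM in wild type. It fell by 0.38 (edgeR adjusted p = 0.00332), and wild type replicate 3, also the lowest wild type library for unc-17, held its lowest wild type value. ceh-10, a homeodomain factor of cholinergic interneurons, fell by 0.51 (adjusted p = 0.00886), and egl-46, a zinc finger factor, rose by 0.67 (adjusted p = 0.000594). The called genes named from the lists of related genes kept their call in each of the 26 alternative settings. Of the others in the plot of called related genes, snf-3, vha-8, snn-1, sph-1, acr-12, dop-5 and unc-86 lost it in 1 to 21 of them, as did egl-3 among the neuronal markers in 19. Triple over daf-2 mutants, irld mutants over wild type and the interaction each gave 0 calls among the 229 genes by edgeR and 0 by DESeq2, with an unadjusted edgeR p under 0.05 for 16, 11 and 13 genes, beside 6.51%, 6.49% and 6.004% of all genes tested.

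**Figure D5:**
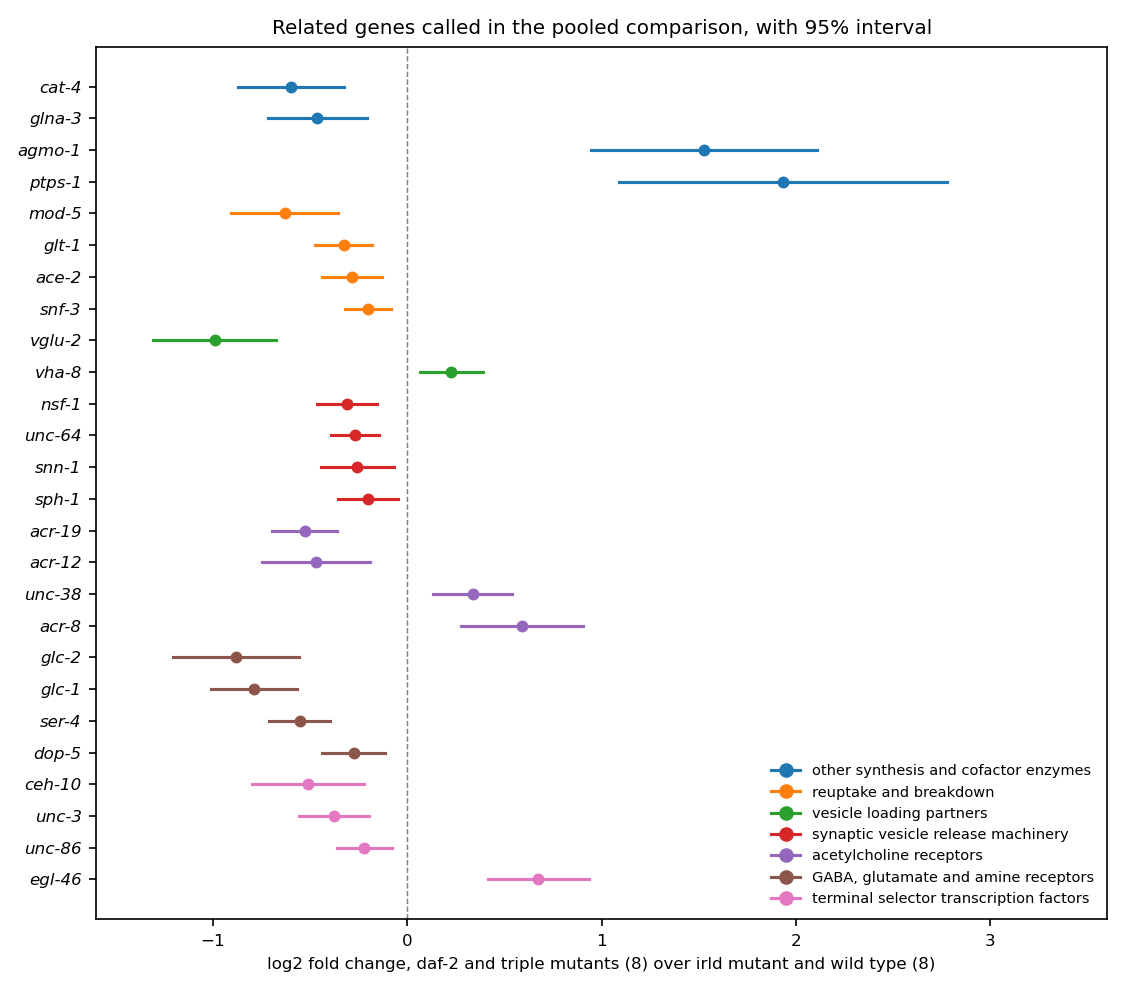
Log2 fold change with 95% interval for up to 4 called genes with the smallest adjusted p from each list of related genes, in the daf-2 and triple mutants (8 libraries) over the irld mutant and wild type (8 libraries), coloured by list; the dashed line marks 0. ptps-1 (1.93) and agmo-1 (1.53) lie farthest to the right and vglu-2 (-0.99) farthest to the left, and all genes drawn for the release machinery and for reuptake lie left of 0.

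Markers of other tissues were compared too, for libraries with and without daf-2(e1370). In that comparison 31.2% of all genes tested were called, 16.1% higher and 15.0% lower. The summed level of 6 intestine markers was 8405 to 11177 CPM in the triple mutant, 8952 to 12895 CPM in the daf-2 mutant, 15103 to 19675 CPM in the irld mutant and 13405 to 25547 CPM in wild type. asp-1, an aspartyl protease, made up most of that sum, with 7487 ± 1079 CPM in the triple mutant, 8541 ± 1790 CPM in the daf-2 mutant, 15266 ± 1939 CPM in the irld mutant and 17044 ± 4540 CPM in wild type (SD, n = 4 each). Of the 6 markers, asp-1 and ges-1 were called lower (-1.01 and -0.86) and act-5 and elt-2 higher (1.08 and 0.34) by edgeR for libraries with the allele against those without it. elt-2 lost its call in 7 of the 26 alternative settings. The 4 epidermis markers tested had 2 calls higher and 1 lower, the 7 body wall muscle markers 2 higher, and the 3 excretory cell markers 1 lower. edgeR called 0 of the 4 pharynx and 0 of the 5 germ line markers, and DESeq2 called 0 and 1. The unadjusted edgeR p was under 0.05 for 0 and 3 of them, beside 41.15% of all genes tested. No marker of any list was at 0 in all libraries of a group. The part of these tissues in the members' values was not tested.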

How the data were processed

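Per the submitters' processing notes and the deposited description sheet, reads were mapped with Bowtie 1.2.2 and counted per gene of WormBase WS273 with HTSeq 0.11.2; whether strand was used is not given in the sources used here. The deposited files hold raw counts per gene, and their 5 summary entries were left out of library sizes. The authors' deposited interaction table was made with edgeR 3.24.4 and gives a log2 fold change, a score (F) and a p-value per gene. The deposited CPM table was not used. The deposited count table was compared with the counts per library in 12 columns, without those of the triple mutant. In these, 562992 of 562992 values were equal.

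Here, the 14058 genes that reached 1 CPM in 4 or more libraries were tested after TMM scaling. A robust quasi-likelihood model of all 4 groups in edgeR 4.0.16, run in R 4.3.3 with limma 3.58.1, gave 7 contrasts. p-values were adjusted (Benjamini-Hochberg) over all genes tested, with a threshold of 0.05. The standard error was taken as the size of the fold change (log2) divided by the root of F. Log2 CPM uses a prior count of 2. The ratio of cha-1 to unc-17 was tested by exact permutation (scipy 1.17.1). Annotation came from Ensembl 115 (WBcel235), which is later than WS273 and named 44053 of 46911 gene identifiers. The edgeR contrast of the daf-2 mutant against wild type was tested on simulated data. The other contrasts and tests were not. No libraries were identical.

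The members, the 14 lists of related genes and markers (248 entries, of which apt-4 and unc-74 were not matched) and the tests were chosen with earlier results of these data known. Named are all members in each comparison, some of the up to 4 called genes per list with the smallest adjusted p, some of the 3 nearest profiles per member, and the mutated genes. unc-46, dat-1, tbh-1 and bas-1 were named for their role after their values were seen. The labels call the libraries biological replicates without saying what separates them. Alternatives were DESeq2 size factors, DESeq2 1.42.0, other filters, all reads as library size, only the groups compared, the replicate number as a block, and libraries or lines left out.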

Additional observations from a re-analysis of the deposited data

How the results depend on the processing

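Of 70 member-by-comparison results, 1 was called (unc-17, libraries with daf-2(e1370) against those without) and 6 more were called in some alternative; 39 kept their sign in every alternative and 31 did not. The count of called members for that comparison was 1; it was 0 with all reads as library size and 1 to 2 when each library was left out. Without line LRB458 it was 1, but the gene was unc-25 (-0.22, edgeR adjusted p = 0.0337). Leaving out each library gave counts of 0 to 1 for the daf-2 mutant against wild type, for the triple mutant against wild type and for the triple against the irld mutant, all 0 with every library. The triple against the irld mutant gave 1 without the 3 libraries with intermediate component scores (cat-2, 1.06, adjusted p = 0.047). The triple mutant against wild type gave 1 without LRB458 replicate 1 and irld mutant replicate 1, an alternative chosen after seeing the data (cat-2, 0.98, adjusted p = 0.0266). Each cause was not tested. The other counts stayed on their side of the threshold. The 5 tests of the cha-1 to unc-17 ratio are too small to show stability, since complete separation gives an exact permutation p of 0.0286 before adjustment. Of 100 results for related genes and markers, 54 were called in every alternative, 46 were lost in some and 0 changed sign. With the replicate number as a block the count was 1 for the first comparison (unc-17 -0.31, adjusted p = 0.0296) and 0 for the others. Of 24 same-numbered pairs of libraries, 9 had deviations correlated over 0.1, and the 24 ranged from -0.46 to 0.31. Pairs with different numbers were not compared, so these values cannot show whether the numbers pair the libraries. tph-1 and cat-2, with 10 to 111 reads per library, have the widest intervals.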
